A study of Mus musculus with 77 samples.

Results

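Ribosome-bound RNA of Sertoli cells at 6d after an injection of retinoic acid (RA) was compared with ribosome-bound RNA of the same cell type at time 0. The comparison takes 4 of the 77 arrays of the series, 2 at 6d and 2 at time 0, and its members were chosen by their labels alone: Amh-cre line, immunoprecipitated (IP) RNA, and the labelled time. The study followed the first wave of spermatogenesis in neonatal mouse testis after it had been held back and then released at one moment. All animals used here were FVB/N mice with a RiboTag allele, which puts an epitope tag on a ribosomal protein once Cre recombinase has acted. In the Amh-cre line the promoter of the anti-Müllerian hormone gene drives Cre, so that ribosomes of Sertoli cells carry the tag, and IP RNA is the polysome-associated RNA that came down with them. The 6d animals had received the inhibitor of RA synthesis BDAD on 9 days and then RA, and the time 0 animals had received BDAD on 9 days and no RA. BDAD was therefore common to both groups. RA, the injection, the end of BDAD and 6 further days of age cannot be told apart, because no uninjected or vehicle group of the same age was analysed here. Age in days is not given in the sources used here, and nothing says whether the 2 arrays of a group came from separate animals. Each p-value therefore reflects only spread between arrays, which may be technical. This spread was pooled over the groups of all 77 arrays, and so does not follow the spread of the 6d arrays alone. With only the compared groups in the fit 653 genes were called for 6d against time 0.

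Comparisons were made with 3 further pairs of groups. Total RNA of whole testis of the Amh-cre line was labelled for 6d and time 0 (2 arrays each), IP RNA of the germ cell line Stra8-cre was labelled for 6d and time 0 (2 arrays each), and Amh-cre IP RNA was labelled for 48h (2 arrays). Values are RMA intensities, an array scale with no fixed unit, and differences are in log2, so that 1 is a doubling. Calls required at least a 2-fold difference and a limma p, adjusted after Benjamini and Hochberg over all genes, under 0.05. In these bulk samples a smaller number of cells of one type and less RNA per cell cannot be told apart.

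Sertoli cells are the somatic cells of the seminiferous tubule. They divide around birth, then leave the cell cycle and mature, take up contact with each generation of germ cells, seal the blood-testis barrier and secrete the proteins and lactate on which germ cells depend. They also receive and make RA, which drives spermatogonia into differentiation and later into meiosis, and their gene activity cycles with the stage of the germ cells they hold. Notch receptors on Sertoli cells are activated by ligands on germ cells and act through repressors of the HES and HEY families, and the growth factor GDNF from Sertoli cells keeps spermatogonial stem cells undifferentiated.

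The labelled cell type matched its markers. The 8 Sertoli markers summed to 45795 to 46051 intensity units in Amh IP RNA at 6d, against 43055 to 43115 at time 0, and reached only 3188 to 3709 in Stra8 IP RNA at 6d. Sox9, the transcription factor that sets Sertoli fate, read 8929.7 and 8158 at 6d, against 8404 and 8068 at time 0, and its groups overlapped. Cst9, a cystatin of Sertoli cells, read 10741 and 11709 at 6d, against 9472 and 9431 at time 0. Cldn11, a claudin of the blood-testis barrier, read 11746 and 11718 at 6d, against 8817 and 9033 at time 0. Fshr, the receptor of follicle-stimulating hormone, read 3537 and 3029.6 at 6d, against 2873 and 2835 at time 0. For these last 3 genes the groups did not overlap, but the differences of 0.25, 0.39 and 0.20 in log2 were not called. With 2 arrays a group such separation is common and is no support by itself. It held for 10 of 11 hormone receptors and 15 of 19 respiratory chain genes, lists in which no gene was called. The share over all genes is not given here. Of the 8 markers Bbox1 and Gata1 rose, Hsd17b1 fell and 5 were not called. Amh itself, whose promoter drives the Cre, read 4365 and 4206 at 6d, against 7434 and 7582 at time 0. Its difference was -0.81 ± 0.31 (SE), with an adjusted p of 0.0502, and it was short of 2-fold.

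Markers of other cell types were also read in these arrays. The 7 germ cell markers summed to 4210 to 5358 at 6d, against 3300 to 3662 at time 0, and 0 of the 7 were called by limma, with 4 at an unadjusted and 2 at an adjusted p under 0.05 (both higher). In Amh total RNA the same sum was 24524 to 25101 at 6d, against 18069 to 18125 at time 0. The 2 Leydig cell markers measured summed to 344 to 940 at 6d and 734 to 1500 at time 0, the 4 myoid markers to 3817 to 4702 and 3477 to 3713, and the 4 macrophage markers to 818 to 920 and 695 to 758. The 4 endothelial markers summed to 1184 to 1567 at 6d, against 2413 to 2536 at time 0. By limma 3 of them had an adjusted p under 0.05, all lower, and 1, Kdr, also reached 2-fold and was called.

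The arrays at 6d differed from each other more than those at time 0. Between the 6d arrays 145 genes were at least 2-fold apart, which is 0.727% of the genes, and between the time 0 arrays 2 genes were, with correlations of log2 values of 0.9922 and 0.9982. Of the genes that rose, 76.2% lay further from time 0 in replicate 2, and of those that fell, 61.8%. Amh arrays labelled 4h and 4d did not follow their labelled place among the other times for the mitosis list and for genes such as Bbox1, and enter the tests only through the shared estimate of the spread. Calls that rest on replicate 2 are named where they occur.

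At 6d 679 of 19938 genes had been called against time 0, which is 3.41% of the genes tested. The rises numbered 252 (1.26%) and the falls 427 (2.14%). Each list count below is to be read against these shares, and a single called gene says nothing about its list. The median difference over all genes was 0.07 and the median standard error 0.14, both in log2. Without the 2-fold minimum 4600 genes had an adjusted p under 0.05.

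**Figure D1:**
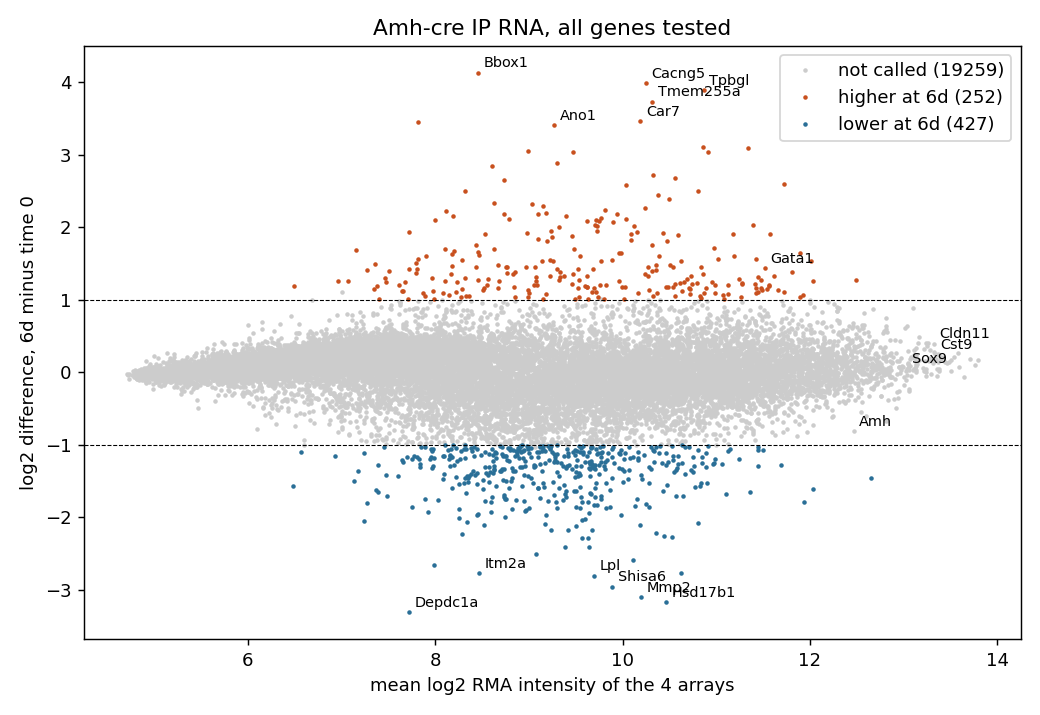
Log2 difference between 6d and time 0 in Amh-cre IP RNA against the mean log2 RMA intensity of the 4 arrays, with 1 point a gene (19938 genes). The 252 called rises are orange and the 427 called falls blue, dashed lines mark a 2-fold difference, and Bbox1 is the highest and Depdc1a the lowest of the named points.

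The largest rise was that of Bbox1, followed by Cacng5. Bbox1, which makes carnitine in its last step of synthesis, read 1175 and 1839 at 6d, against 84.3 and 84.0 at time 0. The rise was 17.5-fold, a log2 difference of 4.13 ± 0.25 (SE), with an adjusted p of 9.91e-18. At time 0 it was below the median of the arrays, and both 6d arrays were far above it. Cacng5, a regulatory subunit of calcium channels and AMPA receptors, read 4385 and 5367 at 6d, against 289 and 324 at time 0, a log2 difference of 3.99 ± 0.21 (SE), with an adjusted p of 5.63e-20. Ano1, a calcium-activated chloride channel, read 2136 and 1892 at 6d, against 183 and 196 at time 0 and rose 10.6-fold. Aqp8, a water channel whose level in Sertoli cells has been tied to androgen action, read 1202 and 1802 at 6d, against 170.2 and 184 at time 0 and rose 8.31-fold. For these 3 genes both 6d arrays lay well above those of time 0. Car7, a cytosolic carbonic anhydrase, read 2348 and 6417 at 6d, against 359 and 345 at time 0, and Esyt3, an extended synaptotagmin of membrane contact sites, read 4189 and 7090.3 at 6d, against 586 and 687 at time 0. Anxa9, an annexin, read 908 and 3239.8 at 6d, against 245 and 221 at time 0. In all 3 the arrays did not overlap between the times, which the choice of the largest rises required. Replicate 2 was well above replicate 1 at 6d.

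The remaining large rises included Tpbgl, Tmem255a, Tsx, Hey1 and H2ac1. Tpbgl, a relative of the trophoblast glycoprotein, read 7381 and 7006 at 6d, against 469.7 and 502 at time 0, and its 6d replicates nearly coincided. Tmem255a, a transmembrane protein, read 2947 and 7316 at 6d, against 314 and 391 at time 0, so that replicate 2 was more than 2-fold above replicate 1. Tsx, a testis gene of the X chromosome, read 4200.3 and 7265 at 6d, against 685 and 656 at time 0. H2ac1, a testis form of histone H2A, read 8621 and 6616 at 6d, against 917 and 859 at time 0, and in Amh total RNA it was higher still, with 17714 and 17109 at 6d, against 5789 and 5542 at time 0. In Stra8 IP RNA H2ac1 read 14.09 and 14.10 in log2 at 6d, against 13.64 and 13.38 at time 0. Histone genes have near-identical copies, and whether these probes are shared with another copy was not tested.

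**Figure D2:**
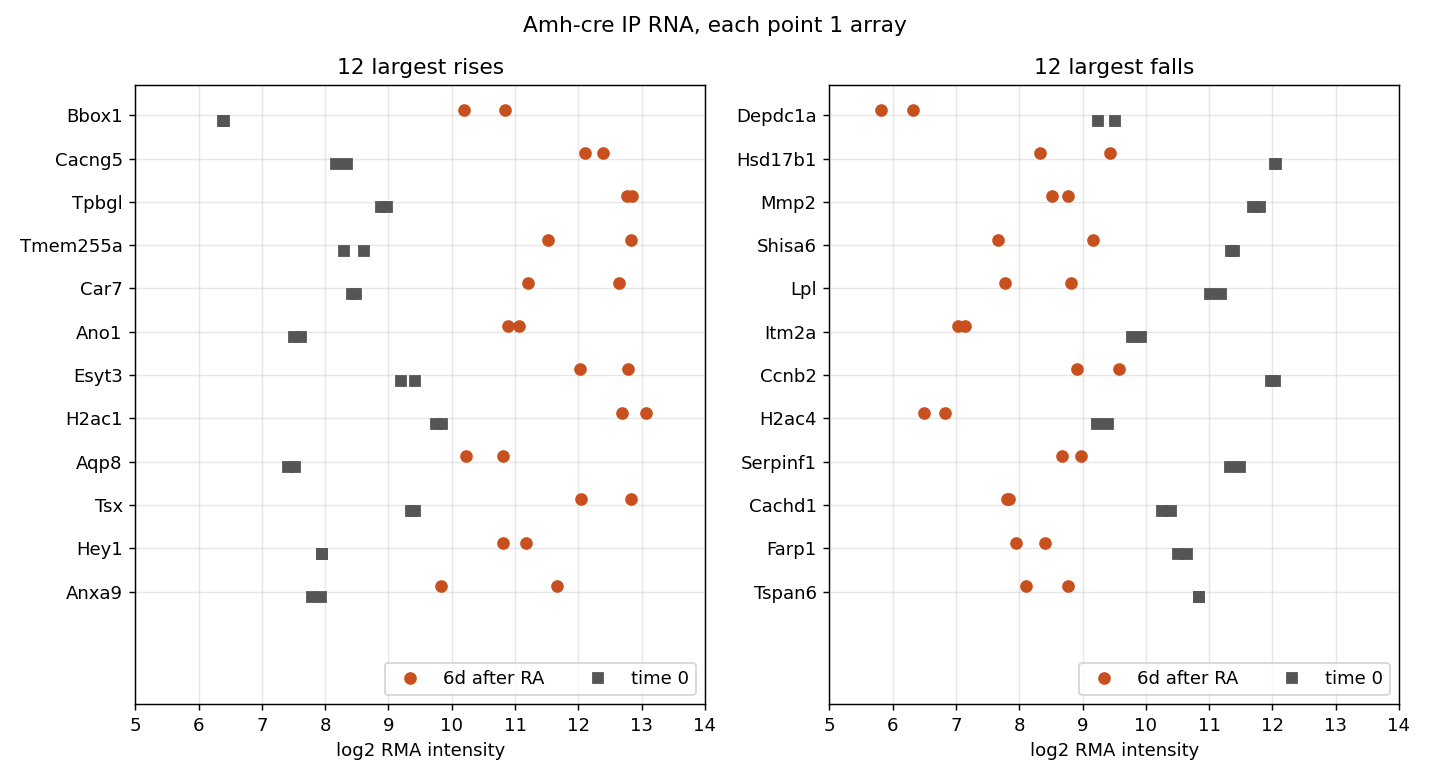
Log2 RMA intensity of the 12 called genes with the largest rises (left) and the 12 with the largest falls (right) in Amh-cre IP RNA, genes with predicted or clone names left out. Circles are the 2 arrays at 6d and squares the 2 arrays at time 0. In each gene the groups are separate, which the choice of these genes required. The circles of Tmem255a, Car7, Anxa9 and Shisa6 lie furthest apart.

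The largest fall was that of Depdc1a, a DEP domain gene of dividing cells, which read 56.3 and 80.2 at 6d, against 731 and 604 at time 0, a log2 difference of -3.31 ± 0.24 (SE), with an adjusted p of 5.34e-15. A second probe set for it differed by -3.07. Hsd17b1, the enzyme that turns estrone into estradiol and an early Sertoli marker, read 689 and 321 at 6d, against 4266 and 4202 at time 0, and fell by 3.17 ± 0.32 on the log2 scale (SE; adjusted p = 4.27e-11). Its 6d arrays differed from each other about 2-fold and both lay far below time 0. Mmp2, a gelatinase of the extracellular matrix, read 368 and 436 at 6d, against 3589 and 3296 at time 0. Serpinf1, the secreted factor PEDF, read 502 and 409 at 6d, against 2863 and 2574 at time 0. Lpl, lipoprotein lipase, read 452 and 219 at 6d, against 2328 and 2074 at time 0. These 3 fell by 2.58 to 3.10 in log2 with no overlap.

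Several fallen genes code for membrane or adaptor proteins. Shisa6, an auxiliary protein of AMPA receptors, read 574 and 203 at 6d, against 2695 and 2594 at time 0. Cachd1, a relative of calcium channel subunits, read 224 and 229.9 at 6d, against 1344 and 1220.3 at time 0, and both 6d arrays were within a few units of each other. Itm2a, an integral membrane protein, read 141 and 131 at 6d, against 973 and 879 at time 0. Farp1 read 340.1 and 247 at 6d, against 1606 and 1464 at time 0, and the tetraspanin Tspan6 read 438 and 275 at 6d, against 1828 and 1841 at time 0. H2ac4, an H2A gene of the histone cluster, read 90.6 and 113 at 6d, against 677 and 602 at time 0, opposite in direction to H2ac1. All 12 of the largest falls had both 6d arrays below both arrays of time 0, which the choice of these genes required.

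The cell cycle machinery was lower in Sertoli IP RNA at 6d. Of 29 mitosis genes measured 18 fell and 0 rose, where 2.14% of all genes fell and 1.26% rose, and the median difference of the list was -1.12, against 0.07 for all genes. Differences ran from -2.77 for Ccnb2 to 0.32 for Tpx2, and 28 of 29 were negative. The number that fell was 10 without replicate 1 of 6d (median -0.90) and 23 without replicate 2 (median -1.37). The mean log2 level of the list was 8.99 and 9.44 at 6d, against 10.38 and 10.26 at time 0. In Amh total RNA, which holds all cells of the testis, the list went the other way.

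Promoters of the 3 fallen mitosis genes that also showed the largest difference between IP and total RNA are printed because promoters of this class are known to hold a CCAAT box, bound by NF-Y, and a TTTGAA element, the cell cycle homology region, through which the DREAM complex represses them in resting cells. Each printed promoter runs from 250 bases before to 50 bases after the start of the RefSeq gene on the GRCm38.p6 build. It is given 5′ to 3′ on the strand of the gene, and capitals mark CCAAT and TTTGAA on either strand.
Ccnb2 at chr9:70421505-70421804, minus strand: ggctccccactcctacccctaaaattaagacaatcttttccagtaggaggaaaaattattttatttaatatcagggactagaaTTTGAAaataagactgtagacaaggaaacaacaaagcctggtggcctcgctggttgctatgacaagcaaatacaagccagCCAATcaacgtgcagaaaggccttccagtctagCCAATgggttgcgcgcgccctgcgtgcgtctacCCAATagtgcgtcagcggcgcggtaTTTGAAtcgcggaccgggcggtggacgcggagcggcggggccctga
Prc1 at chr7:80294201-80294500, plus strand: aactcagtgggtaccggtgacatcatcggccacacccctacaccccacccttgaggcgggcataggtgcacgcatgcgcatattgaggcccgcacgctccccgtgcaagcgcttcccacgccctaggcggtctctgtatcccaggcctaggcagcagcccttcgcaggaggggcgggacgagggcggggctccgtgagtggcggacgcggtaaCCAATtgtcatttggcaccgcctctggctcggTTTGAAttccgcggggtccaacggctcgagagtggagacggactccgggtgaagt
Plk1 at chr7:122159185-122159484, plus strand: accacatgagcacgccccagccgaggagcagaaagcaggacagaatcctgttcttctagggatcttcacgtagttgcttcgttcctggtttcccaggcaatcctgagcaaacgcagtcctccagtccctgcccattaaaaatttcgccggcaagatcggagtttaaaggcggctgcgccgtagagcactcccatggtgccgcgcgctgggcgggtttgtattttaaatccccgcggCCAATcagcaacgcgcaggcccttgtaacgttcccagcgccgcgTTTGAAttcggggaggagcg
RefSeq promoters were matched for 25 of the 29 genes. Of these 18 (72.0%) held CCAAT, 20 (80.0%) TTTGAA and 16 (64.0%) both, against 37.9%, 18.1% and 7.12% of 27025 promoters of the same length. Among the 15 fallen genes with a promoter 13 held TTTGAA, 10 CCAAT and 10 both. Among the 10 that were not called 7 held TTTGAA, 8 CCAAT and 6 both. A match is a string of letters in this window and nothing more.

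Ccnb2, cyclin B2, which activates Cdk1 at entry into mitosis, read 482 and 761 at 6d, against 4212 and 4032 at time 0. The log2 difference was -2.77 ± 0.15 (SE), with an adjusted p of 2.19e-19. Of the TTTGAA elements in its promoter, one lies beside the start and the other further upstream. Aurkb, the kinase of the chromosomal passenger complex, read 582 and 720 at 6d, against 2335 and 2220.4 at time 0, with a log2 difference of -1.82 ± 0.13 (SE), with an adjusted p of 3.07e-15. Prc1, which bundles the microtubules of the central spindle, read 305 and 455 at 6d, against 1249 and 1138 at time 0. Plk1, the polo-like kinase of mitotic entry and spindle assembly, read 599 and 1017 at 6d, against 2558 and 2316 at time 0. In all 4 the arrays of the times were separate, and replicate 2 of 6d was nearer to time 0 than replicate 1. Mki67, the proliferation antigen, read 1035 and 1497 at 6d, against 2442 and 2119 at time 0, a difference of -0.87 ± 0.21 (SE), with an adjusted p of 0.00165, which fell short of 2-fold and was called without replicate 2 of 6d (-1.14). Tpx2, the spindle factor at the top of the list, read 2544 and 2297 at 6d, against 1998 and 1875 at time 0 and was not called.

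**Figure D3:**
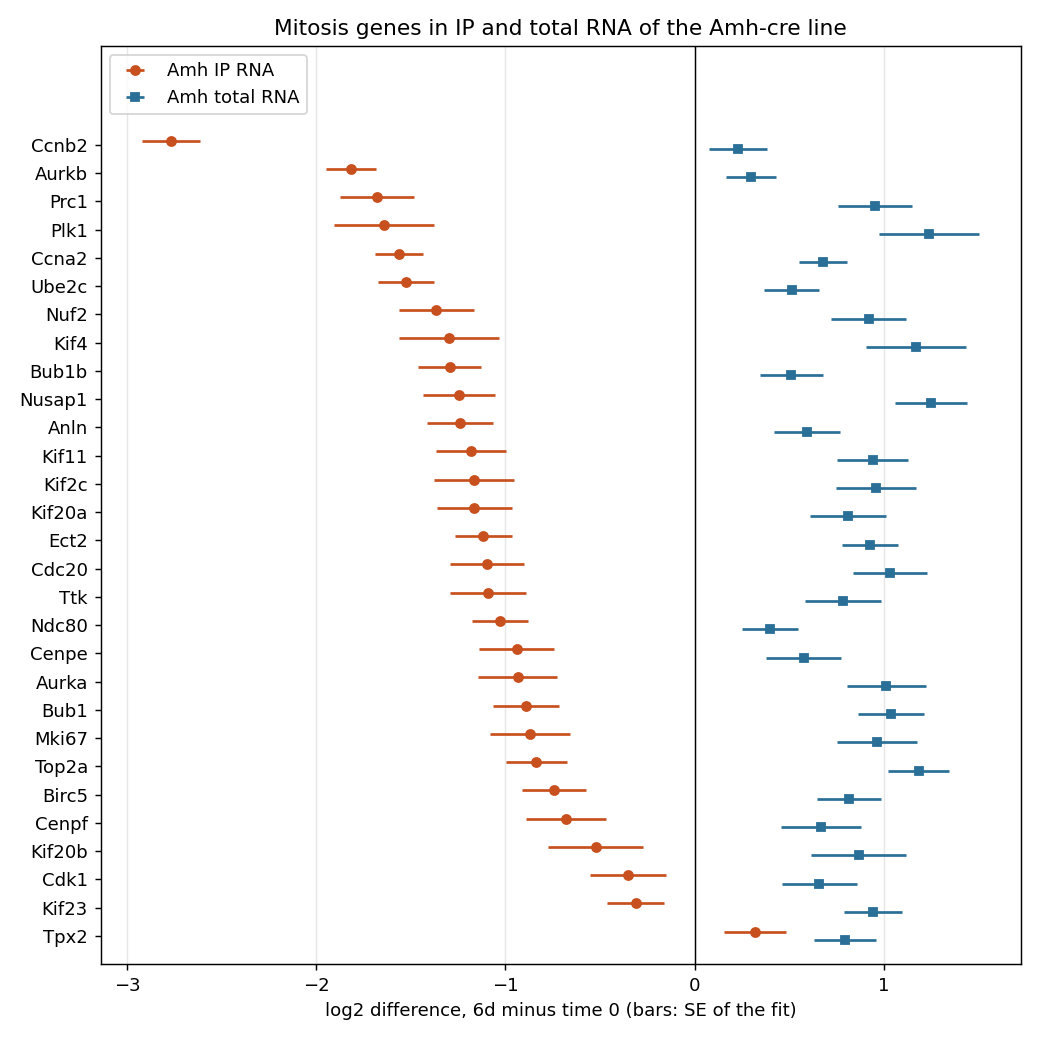
Log2 difference between 6d and time 0 for each of 29 mitosis genes, with the SE of the fit as bars, in Amh-cre IP RNA (orange circles) and Amh-cre total RNA (blue squares). In IP RNA 28 of 29 points lie left of 0, and in total RNA 29 of 29 lie right of it.

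Of 25 genes of DNA replication measured 2 fell and 0 rose, where 2.14% of all genes fell and 1.26% rose. The median was -0.48, against 0.07 for all genes, with 23 negative differences. An adjusted p under 0.05 with no fold minimum was reached by 14 of the 25, all lower at 6d. Tyms, thymidylate synthase, read 494 and 428 at 6d, against 1060.1 and 979 at time 0. Mcm2, a subunit of the replicative helicase, read 893 and 881 at 6d, against 1835 and 1926 at time 0. Both fell with narrow replicates, by 1.15 and 1.08 in log2, and both were short of 2-fold after quantile normalization (-0.92 and -0.94).

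Regulators of the G1 phase moved in both directions. Of 18 cyclins, inhibitors and pocket proteins 2 rose and 5 fell, where 1.26% of all genes rose and 2.14% fell. Ccnd1, cyclin D1, read 2369 and 1402 at 6d, against 429 and 407 at time 0, a log2 rise of 2.12 ± 0.29 (SE), with an adjusted p of 1.51e-07, whereas Ccnd2, cyclin D2, read 1708 and 2623 at 6d, against 7327 and 7209 at time 0, a log2 difference of -1.78 ± 0.18 (SE), with an adjusted p of 1.03e-10. The 2 D-type cyclins thus changed in opposite directions, with Ccnd1 highest in replicate 1 and Ccnd2 lowest in replicate 1. In log2 Ccnd1 at 6d read 11.21 and 10.45 in Amh IP RNA, below 11.63 and 11.25 in Amh total RNA. In Stra8 IP RNA it read 11.69 and 11.84 at 6d and 11.43 and 11.31 at time 0. The part of germ cell RNA in its rise was not tested. Cdkn2c, the CDK inhibitor p18, read 409.7 and 399 at 6d, against 1276 and 1237 at time 0, and E2f8, a repressor of E2F targets, read 138 and 151 at 6d, against 684 and 664 at time 0. Named after their values were seen, Cdkn2b (the inhibitor p15) read 688 and 949.8 at 6d, against 339.9 and 361 at time 0 and rose, while E2f7 read 389.9 and 429 at 6d, against 963 and 924 at time 0 and Rbl1, the pocket protein p107, read 496 and 409 at 6d, against 1199 and 1129 at time 0, and both fell. Cdkn1b, the inhibitor p27 that accumulates as Sertoli cells stop dividing, read 3129.6 and 2995 at 6d, against 1861 and 1939 at time 0, with no overlap. Its difference of 0.69 ± 0.09 (SE), with an adjusted p of 1.39e-08, fell short of 2-fold, and a second probe set gave 0.33.

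Repressor genes that Notch signalling induces rose. Of 16 pathway genes measured 3 rose and 1 fell, where 1.26% of all genes rose and 2.14% fell. There were 13 positive differences, and the median was 0.13, against 0.07 for all genes. Hey1 read 1799.9 and 2309 at 6d, against 248 and 247 at time 0, an 8.24-fold rise with a log2 difference of 3.04 ± 0.20 (SE), with an adjusted p of 1.12e-16. Hey2 read 589 and 605 at 6d, against 132 and 125 at time 0, a log2 difference of 2.22 ± 0.19 (SE), with an adjusted p of 6.92e-13. Hes1 read 1249.8 and 1318 at 6d, against 372 and 423 at time 0, a log2 difference of 1.69 ± 0.18 (SE), with an adjusted p of 2.36e-10. All 3 code for repressors induced by Notch, and in each the replicates of a time agreed closely and the times were far apart. Lfng, a glycosyltransferase that modifies Notch receptors, fell and read 555 and 409 at 6d, against 1536 and 1667 at time 0. No receptor or ligand of the list was called.

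Ligands of the germ cell niche fell or were not called. Of 20 measured 3 fell and 0 rose, where 2.14% of all genes fell and 1.26% rose. The median was -0.11, against 0.07 for all genes. Pdgfa, a growth factor for the cells around the tubule, read 701 and 504 at 6d, against 2091 and 2167 at time 0, a log2 difference of -1.84 ± 0.12 (SE), with an adjusted p of 1.7e-16. Gdnf, the self-renewal factor of spermatogonial stem cells, read 298 and 250 at 6d, against 736 and 764 at time 0, a log2 difference of -1.46 ± 0.22 (SE), with an adjusted p of 8.17e-07. Wnt6, a secreted Wnt ligand, read 1188 and 664 at 6d, against 1974 and 1757 at time 0, and its call was lost without replicate 2 of 6d (-0.65), without replicate 1 of time 0 (-0.98) and after quantile normalization (-0.94). Kitl, the ligand of the Kit receptor on differentiating spermatogonia, read 3576 and 2634 at 6d, against 4504 and 4834 at time 0 and differed by -0.60 ± 0.17 (SE), with an adjusted p of 0.00687, short of 2-fold. Dhh, the hedgehog ligand of Sertoli cells, read 4043 and 4197 at 6d, against 5049 and 4828 at time 0 and was not called.

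In the retinoid pathway 3 of 22 genes rose and 0 fell (1.26% of all genes rose), with a median of 0.26. Rdh10, which oxidises retinol to retinal, read 2930.3 and 3290.3 at 6d, against 517 and 633 at time 0, a log2 difference of 2.44 ± 0.49 (SE), with an adjusted p of 0.000131. Aldh1a2, which oxidises retinal to RA, read 5025 and 4579 at 6d, against 2169.9 and 2201 at time 0, a log2 difference of 1.13 ± 0.13 (SE), with an adjusted p of 1.1e-09. In both the times were separate, and both act in RA synthesis. Cyp26a1, an RA-degrading enzyme that RA itself induces, read 104 and 360.1 at 6d, against 92.2 and 71.1 at time 0, so that its rise rests on replicate 2 of 6d. Its difference was 1.26 ± 0.43 (SE), with an adjusted p of 0.0276, and without that array it was 0.36 and not called. The call was also lost without either array of time 0 (1.44 and 1.07). With only the compared groups in the limma fit its adjusted p was 0.127. Dhrs3, a retinal reductase, read 369 and 441 at 6d, against 313 and 336 at time 0, and Rarb, an RA receptor and RA target, read 137 and 136 at 6d, against 134 and 129.5 at time 0, and neither was called.

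Among enzymes of steroid and lipid metabolism 1 of 20 rose, Bbox1, and 3 fell, Hsd17b1, Lpl and Hsd17b3, with a median of -0.22. Over all genes 1.26% rose and 2.14% fell, with a median of 0.07. Hsd17b3, which makes testosterone from androstenedione and is made in fetal Sertoli cells as well as in adult Leydig cells, read 852 and 1702 at 6d, against 3204 and 2757 at time 0. Its call was lost without replicate 1 of 6d (-0.80) and without either array of time 0 (-1.20 and -1.41).

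Transcription factors and hormone receptors of Sertoli cells were mostly not called. Of 11 identity factors 1 rose and 0 fell. That gene was Gata1, which Sertoli cells switch on during the first wave and which read 4611 and 5072 at 6d, against 1764 and 1821 at time 0, a log2 difference of 1.43 ± 0.17 (SE), with an adjusted p of 7.08e-09. Of 11 receptors of maturation hormones 0 were called by limma with the 2-fold minimum. Their median was -0.60, and 6 of them, all lower at 6d, had both an unadjusted and an adjusted p under 0.05 and fell short of 2-fold. The lowest was Acvr1b, an activin receptor, with 976 and 746 at 6d, against 1556 and 1623 at time 0, and the estrogen receptor Esr2 read 193 and 233 at 6d, against 393 and 394 at time 0. Acvr1b was called without replicate 1 of 6d (-1.09) and Esr2 without replicate 2 of 6d (-1.03). Of 8 androgen-linked genes 2 rose, Aqp8 and Corin, a serine protease that read 944 and 1222 at 6d, against 437 and 488 at time 0. The median of these 8 was 0.61, against 0.07 for all genes, with 7 positive differences. By limma 5 of the 8, all higher at 6d, had an adjusted p under 0.05. Of 10 genes of immature Sertoli cells only Ccnd2 was called. Rhox5 has no probe set with 1 gene here and was not analysed.

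Secreted and junctional proteins were mostly near their level at time 0. Of 21 secreted proteins 1 rose, Plat, the tissue plasminogen activator, which read 3692 and 4601 at 6d, against 1741 and 1932 at time 0. Trf, transferrin, which carries iron to germ cells, read 1091 and 1762 at 6d, against 719.6 and 712 at time 0 and fell short of 2-fold at 0.95 ± 0.26 (SE), with a call without replicate 1 of 6d (1.30), and Clu, clusterin, read 10544 and 10381 at 6d, against 9638 and 9173 at time 0. In the inhibin and activin group 1 of 7 rose. Fstl3, which binds and blocks activin, read 4192 and 6985 at 6d, against 1302 and 1349 at time 0, a log2 difference of 2.03 ± 0.47 (SE), with an adjusted p of 0.00104, while the inhibin subunit Inha read 9694 and 11746 at 6d, against 10116 and 10654 at time 0 with overlapping groups, and Inhbb read 2569 and 2520.4 at 6d, against 3055 and 2885 at time 0. Of 19 junction genes of the blood-testis barrier 0 were called by limma with the 2-fold minimum (9 at an unadjusted p under 0.05 and 7 at an adjusted one, 4 higher and 3 lower), the nearest being Nectin3, an adhesion molecule, with 440.3 and 349.6 at 6d, against 754 and 777 at time 0, and Cldn1 with 161 and 147 at 6d, against 284 and 315 at time 0. Both fell short of 2-fold. Nectin3 was called without replicate 1 of 6d (-1.13), and Cldn1 was called after quantile normalization (-1.17), without replicate 1 of 6d (-1.02) and without replicate 1 of time 0 (-1.03).

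Among genes of energy metabolism and of the immediate early response none reached a 2-fold difference with all 4 arrays. Of 16 lactate and glucose genes 0 were called by limma with the 2-fold minimum, with 9 at an unadjusted and 7 at an adjusted p under 0.05 (6 higher and 1 lower), 15 positive differences and a median of 0.27. Slc16a1, a lactate transporter, read 3591 and 4347 at 6d, against 2226 and 2256 at time 0, and Pfkl, a phosphofructokinase, read 2453 and 3442 at 6d, against 1580.1 and 1673 at time 0, each above time 0 in both arrays and short of 2-fold, and Pfkl was called without replicate 1 of 6d (1.08). By the same test 0 of 19 respiratory chain genes were called (median 0.09, 6 at an unadjusted p under 0.05 and 4 at an adjusted one, 2 in each direction), and 0 of 14 immediate early genes (median 0.01, 7 at an unadjusted p under 0.05 and 3, all lower, at an adjusted one). Egr1, an immediate early transcription factor, read 548 and 299 at 6d, against 494 and 1107 at time 0, a difference of -0.87 ± 0.23 (SE), with an adjusted p of 0.00322, and was called at -1.30 without replicate 1 of 6d and at -1.45 without replicate 1 of time 0. In the cytoskeleton list 1 of 14 rose and 1 fell. Tubb6, a beta tubulin, read 1453 and 1532 at 6d, against 524 and 504 at time 0, and Tubb2b, another, read 363 and 282 at 6d, against 758 and 619.8 at time 0. The replicates of Tubb6 were tight, and the call of Tubb2b was lost without replicate 2 of 6d (-0.92), without replicate 1 of time 0 (-0.95) and after quantile normalization (-0.95).

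Some germ cell genes rose in the IP RNA. Of 25 on the list 4 rose and 1 fell, where 1.26% of all genes rose and 2.14% fell. There were 21 positive differences, and the median was 0.46, against 0.07 for all genes. Kit, the receptor of differentiating spermatogonia, read 505 and 689.6 at 6d, against 235 and 248 at time 0. Stra8, the RA-induced gatekeeper of meiosis, read 270.2 and 368 at 6d, against 132 and 135 at time 0. Rec8, the meiotic cohesin, read 676 and 1644 at 6d, against 438 and 401 at time 0, and Tex101, a germ cell surface protein, read 482 and 673 at 6d, against 241 and 254 at time 0. The calls of Stra8, Rec8 and Tex101 were lost without replicate 2 of 6d (1.02, 0.69 and 0.97), and that of Stra8 also without either array of time 0. In Amh total RNA these genes were far brighter, with 2070.5 and 2164 for Kit and 3287 and 3929 for Tex101 at 6d. Zbtb16, a factor of undifferentiated spermatogonia that was singled out after its value was seen, read 746 and 731 at 6d, against 1527 and 1807 at time 0 and fell. Ddx4, a germ cell helicase, read 545 and 751 at 6d, against 498 and 549.7 at time 0, and Sycp3, of the synaptonemal complex, read 183 and 208 at 6d, against 130 and 147 at time 0, and neither was called. The germ cell list stood at a mean log2 of 8.62 and 8.90 in IP RNA at 6d, against 8.30 and 8.41 at time 0, and at 10.41 and 10.51 in total RNA at 6d, against 9.70 and 9.78 at time 0. The part of germ cell RNA in the IP differences was not tested.

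Genes listed for other testis cell types were called in 3 of the 5 lists, and some of them were brighter in IP than in total RNA. In log2 Hsd17b3 read 11.65 and 11.43 in IP RNA at time 0, against 11.04 and 10.90 in total RNA. Kdr read 9.68 and 9.50 in IP RNA at time 0, against 9.17 and 8.98 in total RNA. Mrc1 read 10.03 and 10.53 in IP RNA at 6d, against 9.15 and 9.87 in total RNA. Which cells this RNA came from was not tested. Of 6 Leydig cell genes measured 1 rose (Hsd3b6) and 1 fell (Hsd17b3), of 12 macrophage genes 1 rose, and of 9 endothelial genes 1 fell. Over all genes 1.26% rose and 2.14% fell. Hsd3b6, a Leydig cell steroid dehydrogenase, read 403 and 1423 at 6d, against 135 and 134 at time 0 in IP RNA and 2579 and 6883 at 6d, against 543 and 517 at time 0 in total RNA, with a call in both and none in IP RNA without replicate 2 of 6d (1.58). Cyp17a1, also of Leydig cells, read 213 and 660.1 at 6d, against 1164 and 502 at time 0, with overlapping groups, and was called at -1.84 without replicate 2 of 6d and at -1.63 without replicate 2 of time 0. Mrc1, a macrophage receptor, read 1043 and 1477 at 6d, against 593 and 516 at time 0 and rose, and its call was lost without replicate 2 of 6d (0.91), while Lyz2, the macrophage lysozyme, read 168.8 and 209.2 at 6d, against 143.6 and 132.6 at time 0. Kdr, the endothelial VEGF receptor, fell, and read 265 and 208 at 6d, against 821 and 726 at time 0, with 216 and 282 at 6d, against 578 and 506 at time 0 in total RNA. Cd34 read 374 and 698 at 6d, against 785 and 794 at time 0 and was called at -1.08 without replicate 2 of 6d. Among 9 myoid genes 0 were called by limma (3 at an unadjusted and 1 at an adjusted p under 0.05), with Acta2, smooth muscle actin, at 2775 and 3456 at 6d, against 2189 and 2408 at time 0 and Myh11, smooth muscle myosin, at 547 and 800 at 6d, against 881 and 912 at time 0. Of 5 erythroid genes 2 were measured and 0 called by limma, with 0 at an unadjusted p under 0.05.

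Total RNA of the same line tested whether the change was that of the whole testis. At 6d 609 genes were called in Amh total RNA against time 0 (3.05%), 251 higher (1.26%) and 358 lower (1.8%), or 296 and 283 after median centring. The change in IP RNA differed from that in total RNA for 395 genes (1.98%), with 102 more positive in IP RNA (0.512%) and 293 more negative (1.47%). IP and total arrays of one number and time deviated together in the Amh line (7 of 7 pairs), and with that pairing as a block 427 genes were called.

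Mitosis genes set the fractions apart. In total RNA 7 of 29 rose and 0 fell, with a median of 0.87, and for 28 of 29 the change in IP RNA was the lower by the test of the difference. Plk1 read 3762 and 4260.2 at 6d, against 1796 and 1601 at time 0 in total RNA, a rise of 1.24 in log2, and the difference between fractions was -2.88 ± 0.37 (SE), with an adjusted p of 2.51e-07. Prc1 read 1925 and 1996 at 6d, against 1045 and 977 at time 0 in total RNA, and the difference between fractions was -2.63 ± 0.28 (SE), with an adjusted p of 1.83e-09. Ccnb2 read 4054 and 4337 at 6d, against 3644 and 3499 at time 0 in total RNA, nearly level, and its difference between fractions was -2.999 ± 0.22 (SE), with an adjusted p of 3.32e-14. At 6d the mean log2 of the list was thus 8.99 and 9.44 in IP RNA and 11.03 and 11.18 in total RNA, whereas at time 0 IP RNA stood at 10.38 and 10.26 and total RNA at 10.33 and 10.24. Of 25 replication genes 11 were lower by the same test and 0 higher. Prss50, a testis serine protease, rose in both fractions and further in total RNA. It read 351 and 424 at 6d, against 155 and 111 at time 0 in IP RNA and 2697 and 2669 at 6d, against 125 and 129.8 at time 0 in total RNA. Its call in IP RNA was lost without replicate 2 of 6d (1.42) and without replicate 2 of time 0 (1.31).

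Other genes had a more positive change in IP RNA than in total RNA, and the first of them, Utf1, was lower at 6d in total RNA. Utf1, a chromatin factor known from pluripotent cells and spermatogonia, read 1748 and 1789 at 6d, against 412 and 424 at time 0 in IP RNA and 952 and 863 at 6d, against 1178 and 1159 at time 0 in total RNA, a difference of 2.45 ± 0.23 (SE), with an adjusted p of 1.06e-10. Uchl1, a deubiquitinase, read 1832 and 5928 at 6d, against 621 and 637 at time 0 in IP RNA and 3553 and 4524 at 6d, against 3306 and 3462 at time 0 in total RNA. Gfpt2, which makes glucosamine phosphate, read 3034 and 2304 at 6d, against 469 and 645 at time 0 in IP RNA and 1201 and 1099 at 6d, against 974 and 985 at time 0 in total RNA. Hey1 read 968 and 1122 at 6d, against 499.6 and 603 at time 0 in total RNA, a smaller change than in IP RNA by 2.12 ± 0.28 (SE), with an adjusted p of 5.11e-07. The 3 Notch targets Hey1, Hey2 and Hes1 were all called by this test. Hsd17b1, Gdnf and Lfng changed in total RNA by -2.87, -1.36 and -1.63, and their differences between fractions were not called.

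IP RNA of the germ cell line gave a wider contrast. The change at 6d differed between Amh and Stra8 IP RNA for 1835 genes (9.2%), 624 more positive in the Amh line (3.13%) and 1211 more negative (6.07%). Cacng5 read 398 and 402 at 6d and 306 and 263 at time 0 in Stra8 IP RNA, and its change was greater in the Amh line by 3.49 ± 0.30 (SE), with an adjusted p of 6.91e-13. Hey1 read 966 and 1015 at 6d and 1447 and 1168 at time 0 in Stra8 IP RNA, a difference between lines of 3.44 ± 0.28 (SE), with an adjusted p of 2.63e-13. Utf1 differed between lines by 3.57 and the adhesion molecule Mpzl2, which read 943 and 1370 at 6d, against 479 and 413 at time 0 in Amh IP RNA, by 3.56. Both were lower at 6d in Stra8 IP RNA. In log2 Utf1 read 9.73 and 9.70 there at 6d, against 11.29 and 11.10 at time 0. Mpzl2 read 7.73 and 8.05 there at 6d, against 10.04 and 10.17 at time 0. In the other direction H2ac4 differed by -3.75, Greb1l by -3.44, Cdkn2c by -3.13 and Rrm2, a subunit of ribonucleotide reductase, by -3.07. In Stra8 IP RNA Rrm2 read 12.03 and 11.92 in log2 at 6d, against 9.90 and 9.66 at time 0. Its change in Amh IP RNA (-0.87) was short of 2-fold. Greb1l read 484 and 342 at 6d, against 1637 and 1492 at time 0 in Amh IP RNA, against a change of 1.49 in Stra8 IP RNA. Of the 29 mitosis genes 28 were lower in the Amh line by this test, and of 25 replication genes 16.

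How much of the difference lay after 48h was tested on the same 6d arrays, so that both comparisons share them. Between 6d and 48h 226 genes were called (1.13%), 124 higher (0.622%) and 102 lower (0.512%), and 399 without replicate 1 of 6d. Bbox1 read 1175 and 1839 at 6d, against 112 and 128 at 48h, a log2 difference of 3.62 ± 0.25 (SE), with an adjusted p of 4.05e-15. Ano1 read 235 and 228 and Cacng5 782 and 852 at 48h, and both rose further by 6d, by 3.12 and 2.57. Hey1 read 329.6 and 334 at 48h, with a log2 difference of 2.62 ± 0.20 (SE), with an adjusted p of 9.58e-14, and Hes1 and Hey2 were called as well. Meioc, needed for meiotic prophase in germ cells, had the largest rise after 48h, with 949 and 1194 at 6d, against 85.4 and 82.6 at 48h, and it read 5627 and 5291 in Amh total RNA at 6d. Tmem255a, Tpbgl and Esyt3 had reached 3192 and 3095, 4025 and 4088 and 3259 and 3405 by 48h and were not called between 48h and 6d.

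The falls after 48h were led by Shisa6, Cadm3, Farp1 and Fat4. Shisa6 read 574 and 203 at 6d, against 1522 and 1589 at 48h, a log2 difference of -2.19 ± 0.39 (SE), with an adjusted p of 7.27e-05, and its call was lost without replicate 2 of 6d (-1.44). Cadm3, a cell adhesion molecule, read 681 and 383 at 6d, against 2019.5 and 1984 at 48h. Farp1 read 1067 and 1155 at 48h, and Fat4, a large cadherin, read 220.4 and 234 at 6d and 913 and 739 at 48h. All 4 were separate between these times. Gdnf, Lfng, Wnt6 and Lpl were called lower too, by 1.27, 1.57, 1.38 and 1.73 in log2. Hsd17b1 and Mmp2 had fallen to 784 and 871 and 645 and 564 at 48h and were not called after it.

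Leaving aside the arrays labelled 4h and 4d, mitosis genes were lowest in IP RNA at 48h. The mean log2 of the list was 10.38 and 10.26 at time 0. By 12h it was 9.58 and 9.60, by 24h it was 9.19 and 9.18, and its low point of 8.52 and 8.62 came at 48h. It stood at 8.99 and 9.44 on day 6 and 9.13 and 9.14 on day 8. Between 48h and 6d 7 of the 29 genes rose and 0 fell, with a median of 0.60 and 29 positive differences. Plk1 read 599 and 1017 at 6d, against 337 and 409 at 48h, and Mki67 read 1035 and 1497 at 6d, against 404 and 479.9 at 48h. In total RNA the list stood at 11.03 and 11.18 at 6d, against 10.35 and 10.33 at 48h. Germ cell genes in IP RNA stood at 8.62 and 8.90 at 6d, against 8.05 and 8.17 at 48h, and 7 of 25 were called higher and 0 lower. The part of germ cell RNA in the rise of mitosis genes after 48h was not tested.

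**Figure D4:**
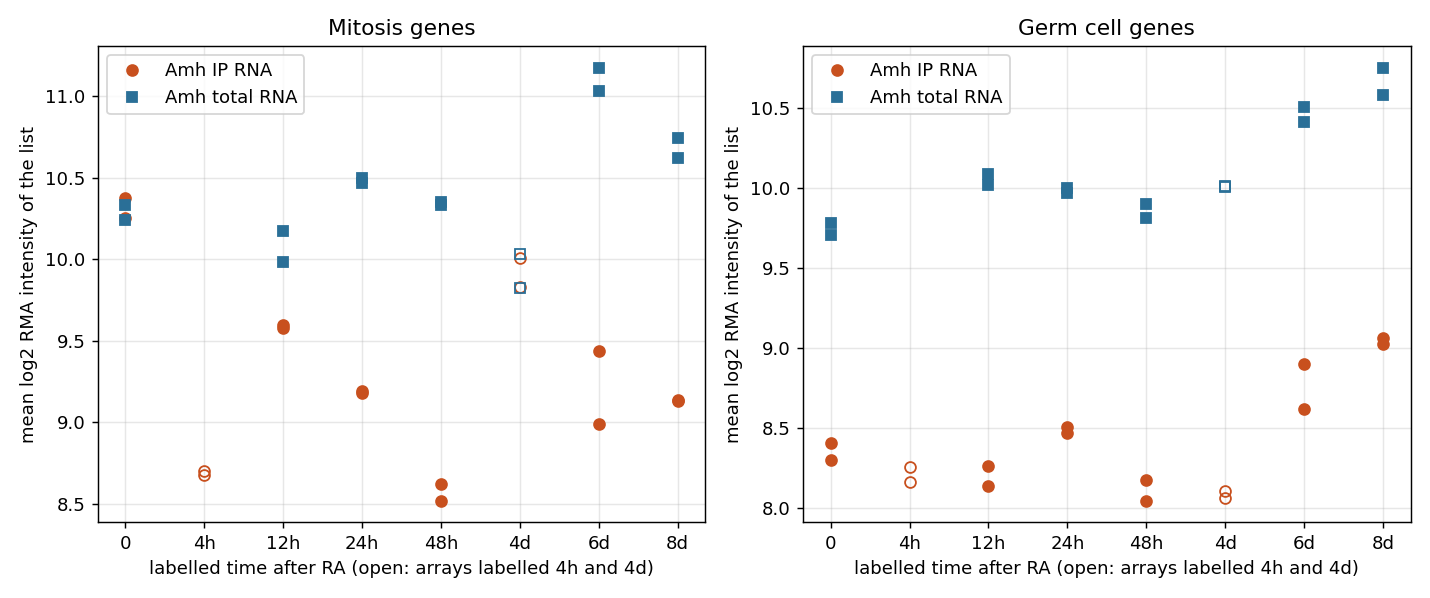
Mean log2 RMA intensity of the mitosis list (left, 29 genes) and the germ cell list (right, 25 genes) by labelled time after RA in Amh-cre IP RNA (orange circles) and Amh-cre total RNA (blue squares), with 1 point an array. Mitosis genes fall in IP RNA to 8.52 and 8.62 at 48h and reach 11.03 and 11.18 in total RNA at 6d, and the arrays labelled 4h and 4d (open) lie away from their neighbours for the mitosis list in IP RNA but not for the germ cell list.

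Single genes took different courses to their level at 6d. Hey1 peaked at 6d, with intensities of 329.6 and 334 at 48h, 1799.9 and 2309 at 6d and then 474 and 493 at 8d. Aqp8 read 1202 and 1802 at 6d and 408 and 327 at 8d, and Ccnd1 read 2369 and 1402 at 6d and 534 and 462 at 8d. For these 3 genes 6d stood above both of its neighbours in time. Bbox1 stayed near its starting level up to 24h, with 92.1 and 87.3, and read 1654 and 2047 at 8d. Tmem255a was high at 12h already (6246 and 7186), lower at 48h and high again at 8d (7814 and 9834). Uchl1 did likewise. It read 5297 and 5378 at 12h, dipped to 1599 and 1709.5 by 48h and reached 5482 and 6497 by 8d. Fstl3 took the same course, with 7069 and 6266 at 12h, a dip to 2586 and 2991 by 48h and 5781 and 6767 by 8d. These courses are given as values, and only the steps to 6d were tested.

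**Figure D5:**
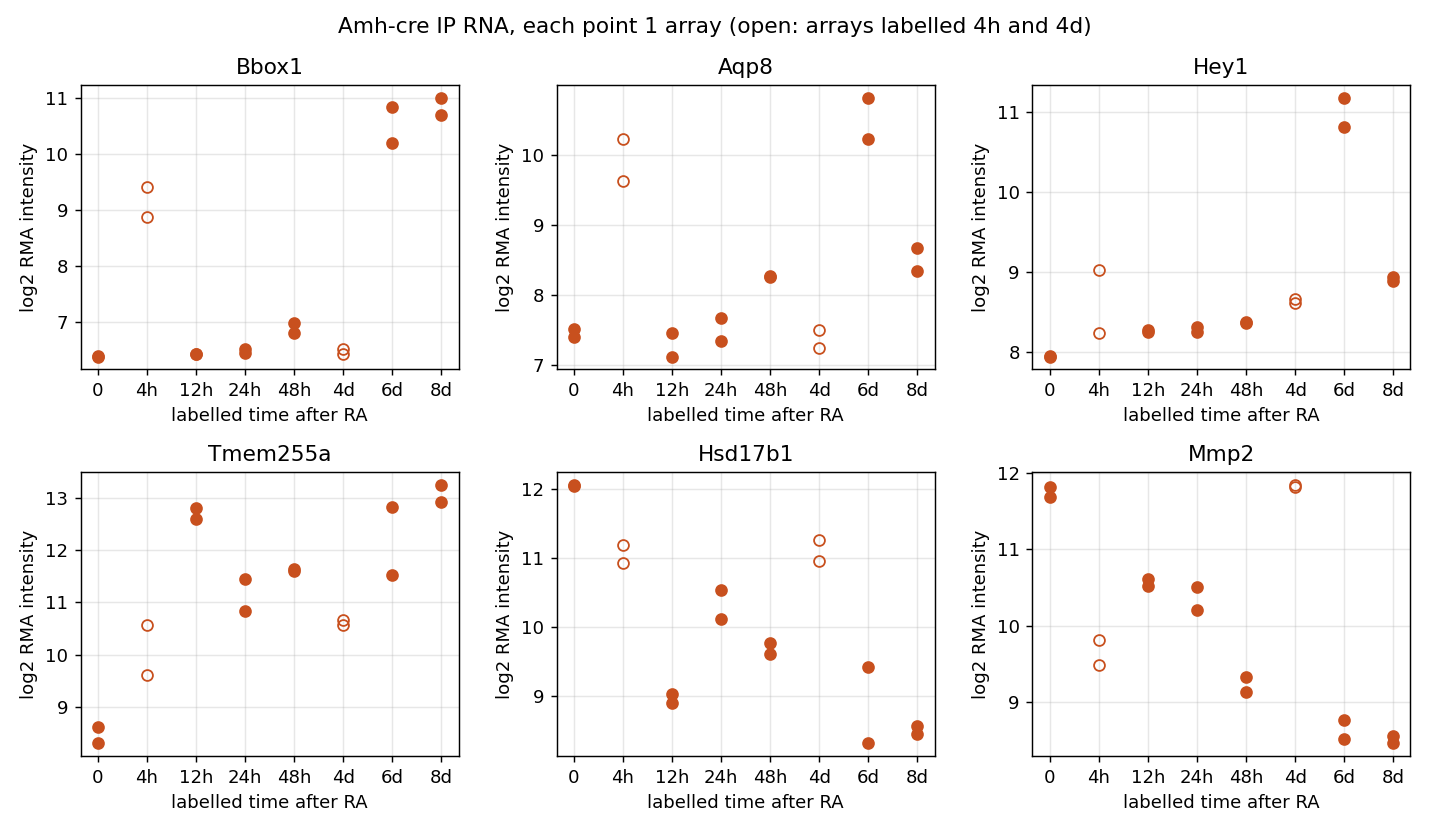
Log2 RMA intensity of Bbox1, Aqp8, Hey1, Tmem255a, Hsd17b1 and Mmp2 by labelled time after RA in Amh-cre IP RNA, with 1 point an array. Hey1 and Aqp8 are highest at 6d, and Mmp2 is lowest at 6d and 8d. Tmem255a is high at 12h and again at 8d, and at 6d in replicate 2 only. Open points are the arrays labelled 4h and 4d, which lie out of the course of Bbox1, at 9.41 and 8.88 in log2 in the arrays labelled 4h and 6.44 and 6.52 in those labelled 4d.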

How the data were processed

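Per the file headers and the submitters' processing notes, the deposited values are intensity from a gene-level, 1-colour array processed with RMA and given on a linear scale. The sources used here do not give the RMA settings. Per the labels' protocols, about 100 ng RNA entered the Ovation V2 amplification, and Encore biotin labelling followed. The log2 of the deposited values was taken with no other scaling. Array medians ran from 266 to 277 over the 4 arrays. Low intensities are compressed near a floor of about 25.4 to 25.9, and 2 arrays a group limit precision. Of 28853 probe sets 5443 without a listed gene and 1621 with several were left out. For 999 genes the probe set with the highest mean was used, and 19938 genes were tested. A limma 3.58.1 model (R 4.3.3) gave each group a mean over all 77 arrays, with an intensity trend, two-sided tests and Benjamini-Hochberg adjustment over all genes, and was tested on simulated data. Replicate numbers of different times did not deviate together (r = -0.007 for 6d and 0), and those of IP and total RNA of one time did (r from 0.114 to 0.585). Members, lists, markers and alternatives were chosen with earlier results of these data known. Named genes are the 12 largest called rises and falls without overlap, predicted and clone names left out, up to 4 called members of each of 24 lists (up to 2 of the largest where none was called), a fixed set of Sertoli, germ cell and RA genes, and the 4 largest in each direction of the other comparisons. Lists got counts and medians and no set test. Alternatives were no fold minimum, the 30% dimmest genes left out, median centring, quantile normalization, mean of probe sets, a replicate block, fewer arrays in the fit, no intensity trend, and each array left out.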

Additional observations from a re-analysis of the deposited data

Results flagged for a closer look

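Some results stood out because the change at 6d was tested to differ between 2 kinds of RNA or 2 lines. Between IP and total RNA of the Amh line the change differed for 395 genes. It was greater in IP RNA, in log2, for Utf1 (2.45), Uchl1 (2.14), Hey1 (2.12) and Gfpt2 (2.03). It was lower in IP RNA for Ccnb2 (-2.999), Plk1 (-2.88), Prss50 (-2.84) and Prc1 (-2.63). Uchl1 was not called when only the compared groups were fitted.

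Between Amh and Stra8 IP RNA the change differed for 1835 genes. It was greater in the Amh line for Utf1 (3.57), Mpzl2 (3.56), Cacng5 (3.49) and Hey1 (3.44). It was lower in the Amh line for H2ac4 (-3.75), Greb1l (-3.44), Cdkn2c (-3.13) and Rrm2 (-3.07). The lines also differ in the cells that carry the tag, and no cause was tested.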

How the results depend on the processing

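Of the 5 counts of called genes (679 for 6d against 0 in IP RNA, 609 in total RNA, 395 and 1835 for the differences between fractions and lines, and 226 for 6d against 48h), each stayed within 1.5 times under median centring, quantile normalization, the mean of probe sets, the dimmest 30% left out, fewer arrays (also with the 4h and 4d Amh arrays left out) and no intensity trend. With no fold minimum they were 4600, 4935, 1533, 6725 and 2116. Leaving out 1 array gave 633 to 839, 608 to 674, 350 to 479, 1774 to 1977 and 171 to 399, and the 399 came without replicate 1 of 6d. With the replicate number as a block within each line they were 679, 609, 389, 1834 and 225, and with the pairing of IP and total arrays, an alternative added after seeing the data, the difference between fractions gave 427. Of 101 named genes 64 were called for 6d against 0 and 52 kept that call in every alternative in which they were tested. The other 12 were Cyp26a1, Hsd17b3, Hsd3b6, Mcm2, Mrc1, Prss50, Rec8, Stra8, Tex101, Tubb2b, Tyms and Wnt6, and 0 changed direction. Bbox1 and Cyp26a1 were left out with the dimmest 30% and so not tested in that alternative. Among mitosis genes 13 fell after quantile normalization and 25 with no fold minimum, and 0 rose in any setting. A dim gene near the floor understates its change.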

Other observations

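Genes that differed between the 2 arrays at 6d formed a pattern of their own, described here without a test and chosen on these values. Replicate 2 was at least 2-fold higher for 94 genes and at least 2-fold lower for 51. In Amh total RNA at 6d replicate 2 was also the higher array for 93 of the 94 and the lower for 48 of the 51, with median differences of 0.81 and -0.55 in log2. Whether IP and total arrays of one number came from one sample is not given in the labels. The mean at 8d lay above the mean at 6d by a median of 0.92 for the 94 genes and at -0.62 for the 51, in both sets the direction in which replicate 2 differed.

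Oit3 read 242 and 1173 in IP RNA at 6d and 1528 and 2621 at 8d, against 187 and 178 at time 0. Slc15a1, a peptide transporter, read 128 and 588 at 6d and 1550.1 and 1982 at 8d, against 101 and 93.5 at time 0. In both genes replicate 1 of 6d lay near time 0 and replicate 2 between replicate 1 and 8d. Lgals1, the lectin galectin-1, read 1327 and 5697 at 6d, against 5022 and 5070.2 at time 0, so that its 6d arrays fell on either side of time 0. Among genes lower in replicate 2, Bcan, the proteoglycan brevican, read 3001 and 1059 at 6d and 1089 and 472 at 8d, against 4367 and 4369 at time 0. Gper1, a membrane estrogen receptor, read 1059 and 331 at 6d and 419 and 203 at 8d, against 1302 and 1266 at time 0.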
